A study of Homo sapiens with 4 samples.

Results

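Interferon-stimulated genes are the genes that cells switch on when they sense a virus or receive interferon. A set of 43 of them was taken from the gene table of this study by gene symbol, from a list drawn up with earlier results of these data known, and all 43 were found, each in 1 row, among 58174 genes. RNA sequencing had been carried out on 2 established human lung cancer lines transfected for 48 h with a small interfering RNA against CDH3 (siCDH3) or with a control one (siCTR), with 1 library in each of the groups H1299 siCDH3, H1299 siCTR, HCC827 siCDH3 and HCC827 siCTR. H1299 is a non-small cell lung carcinoma line that lacks p53, and HCC827 is a lung adenocarcinoma line driven by a mutant EGF receptor. The design asked which genes differ when CDH3, which encodes P-cadherin, is silenced for a short time. Each line stands for 1 tumour, and no untransfected culture was analysed here, so every level below is that of transfected cells.

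Interferons alpha, beta and lambda are secreted ligands that bind receptors coupled to the kinases JAK1 and TYK2. These phosphorylate transcription factors such as STAT2, which joins IRF9 in a complex that binds interferon-stimulated response elements in promoters. The induced proteins detect viral RNA, degrade it, block viral entry and assembly, or tag proteins with the ubiquitin-like ISG15. Many carcinoma lines keep some of these genes switched on without added interferon.

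Levels are the TPM values deposited by the authors, each the share of a transcript in its library, which are scaled for transcript length, so that genes can be compared within a library. The TPM columns summed to between 999859 and 999943, and the read depth is unknown. CDH3 was at 0.169 TPM in H1299 siCDH3 and 1.21 in H1299 siCTR. It was at 78.8 in HCC827 siCDH3 and 172.7 in HCC827 siCTR, which left 45.6% in HCC827. In H1299, where the target was low with the control siRNA too, 14.0% was left. The members differed more between the siRNAs in H1299 than in HCC827. The part of CDH3 itself in these differences, beside other effects of the siRNA, was not tested. The labelled lines were told apart by their markers, as EPCAM was at 409 and 437 TPM in HCC827 siCDH3 and siCTR and at 0.286 and 0.514 in H1299 siCDH3 and siCTR, whereas VIM was at 8.20 and 9.64 in HCC827 siCDH3 and siCTR and at 5060 and 5149 in H1299 siCDH3 and siCTR.

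Together the 43 genes held 3075 TPM in H1299 siCDH3, 2468 in H1299 siCTR, 2636 in HCC827 siCDH3 and 2373 in HCC827 siCTR. IFITM3 alone made up 43.4% and 44.2% of that sum in H1299 siCDH3 and siCTR, and 23.8% and 23.5% in HCC827 siCDH3 and siCTR. A level of at least 5 TPM was reached by 32 of the 43 genes in H1299 siCDH3, 30 in H1299 siCTR, 39 in HCC827 siCDH3 and 37 in HCC827 siCTR. The set was thus expressed in both lines with the control siRNA too, where the median member stood at 25.5 TPM in HCC827 and at 13.0 TPM in H1299. In bulk RNA, a higher level per cell and a larger share of expressing cells cannot be told apart.

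**Figure D1:**
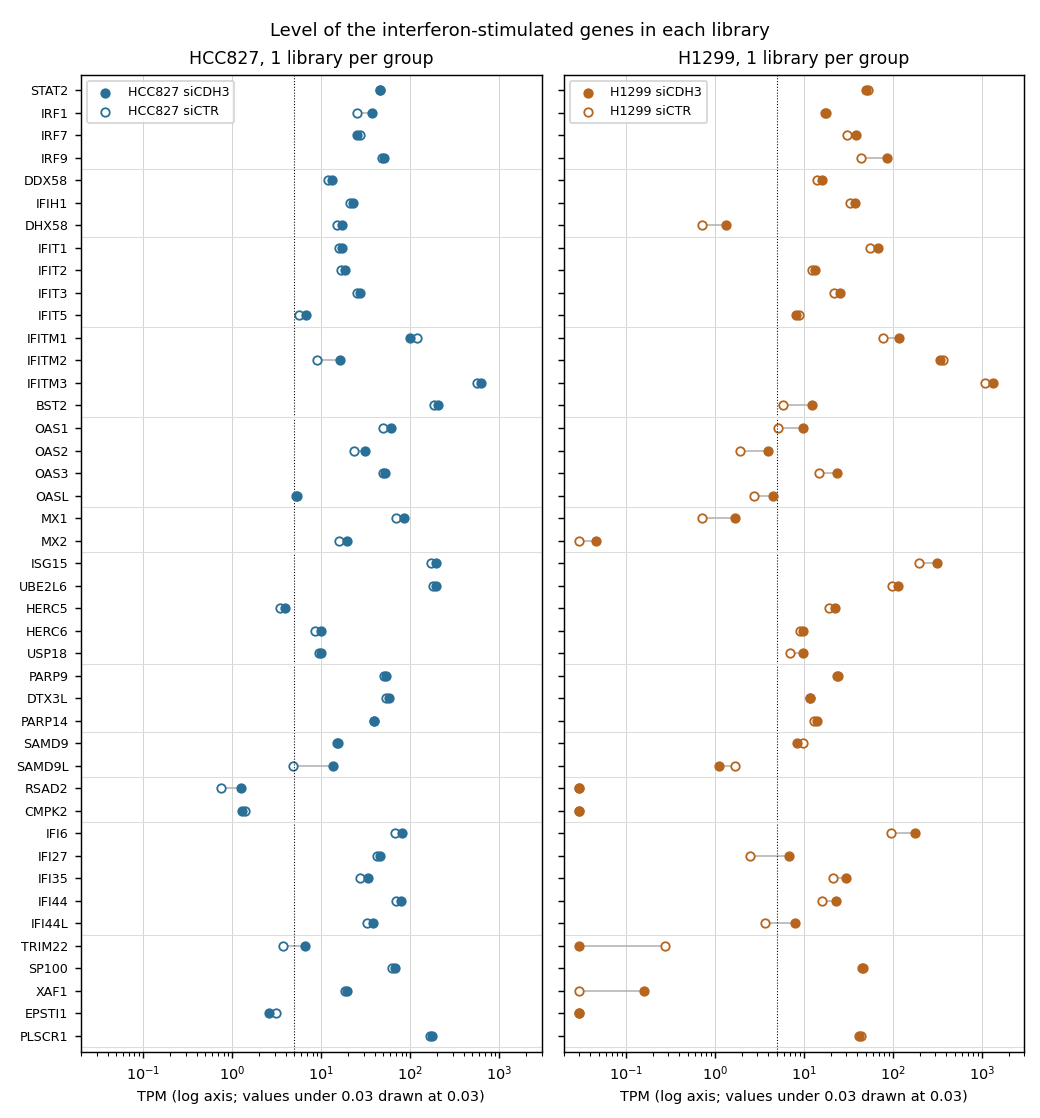
TPM on a log axis of each of the 43 genes, ordered by role, in HCC827 (left) and H1299 (right); filled points are siCDH3, open points siCTR, 1 library each, and the dotted line marks 5 TPM. IFITM3 is the highest member in all 4 libraries, and MX1, MX2, XAF1 and TRIM22 are at 1.70 TPM or less in H1299 and at 3.76 TPM or more in HCC827.

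In H1299, most members were higher in siCDH3 than in siCTR. Ratios are siCDH3 over siCTR as log2(TPM + 1), for genes that averaged at least 5 TPM over the 2 libraries compared. The pseudocount of 1 understates changes of low genes. On this scale no member past the filter was at least 2-fold higher, against 0.675% of all genes, but in TPM itself IFI44L was 2.14-fold and BST2 2.11-fold higher. Of the 43 members 31 passed this filter, and 26 of the 31 had a ratio above 0, against 35.2% of the 11258 genes that passed. The median of the members was 0.23 and that of all genes -0.10, so the members stood 0.33 above all genes. STAT2, PLSCR1 and IFITM2 had ratios just below 0 that lay above the median of all genes, whereas SAMD9 and IFIT5 lay below both. At least 1.5-fold higher were 7 members, or 22.6% of the 31, against 2.77% of all genes. At least 1.5-fold lower was none, against 6.64% of all genes. At least 1.2-fold higher were 14 members, or 45.2%, against 10.6% of all genes. With the median of all genes set to 0, 9 members and 4.13% of all genes were at least 1.5-fold higher, and 0 members and 4.19% lower. With a pseudocount of 5 the count of 7 became 4, and among the 17 members with a mean of at least 20 TPM it was 3. Without any filter, 33 of the 43 members were above 0, 7 below and 3 at 0 in both libraries. Of all genes 20.2% were then above 0, with a median of 0. With 1 library per group these differences have no replicate check. In the same libraries the mesenchymal markers ZEB1, at 20.6 and 34.7 TPM in siCDH3 and siCTR, and CDH2, at 22.7 and 35.3, were past 1.5-fold lower. The mesenchymal marker VIM was nearly level (-0.03). The epithelial marker KRT7, at 10.2 and 5.49 TPM, was past 1.5-fold higher, but KRT8 (0.06) and KRT18 (0.07) were nearly level. The epithelial markers EPCAM, CDH1 and KRT19 lay under the filter. The part of these markers in the members' differences was not tested.

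The 7 members past 1.5-fold in H1299 were BST2, IRF9, IFI44L, IFI6, OAS1, ISG15 and OAS3. BST2, or tetherin, which holds budding virus particles at the cell surface, was at 12.3 TPM in siCDH3 and 5.83 in siCTR (log2 ratio 0.96). IFI44L, a cytoplasmic protein that dampens the antiviral response, was at 7.85 and 3.67 TPM in siCDH3 and siCTR (0.92). IFI6, a small membrane protein that opposes apoptosis, was at 176 and 95.0 TPM in siCDH3 and siCTR (0.89). Both low and abundant members were therefore among the 7. ISG15, the ubiquitin-like modifier, was the next most abundant member after IFITM3 by mean TPM over the libraries, with 316 TPM in siCDH3 and 194 in siCTR (0.70).

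For 5 of these 7, the promoter sequence in the RefSeq table (GRCh38.p14) held the core of the response element, read on both strands: GAAA, any 2 bases and GAAA again. The stretch from 170 bases to 1 base before the start of transcription is given 5′ to 3′ on the strand of the gene, with each match in capitals, because these are the members past 1.5-fold in H1299 that hold a match. IRF9 and OAS1 also passed 1.5-fold. Coordinates are those of GRCh38.p14 and not of hg19, the build named in the submitters' processing notes.
ISG15 (chr1:1013327-1013496, plus strand): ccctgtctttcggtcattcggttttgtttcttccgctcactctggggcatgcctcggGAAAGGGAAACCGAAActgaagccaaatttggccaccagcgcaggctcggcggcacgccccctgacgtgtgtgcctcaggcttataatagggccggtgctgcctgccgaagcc
IFI6 (chr1:27672193-27672362, minus strand): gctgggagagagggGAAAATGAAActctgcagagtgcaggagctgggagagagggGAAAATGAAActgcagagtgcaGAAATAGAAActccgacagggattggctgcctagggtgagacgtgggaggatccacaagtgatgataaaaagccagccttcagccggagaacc
IFI44L (chr1:78620278-78620447, plus strand): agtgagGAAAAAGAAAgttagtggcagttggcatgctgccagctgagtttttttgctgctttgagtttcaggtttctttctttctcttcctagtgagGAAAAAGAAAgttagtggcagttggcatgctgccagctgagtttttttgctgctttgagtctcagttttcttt
BST2 (chr19:17405631-17405800, minus strand): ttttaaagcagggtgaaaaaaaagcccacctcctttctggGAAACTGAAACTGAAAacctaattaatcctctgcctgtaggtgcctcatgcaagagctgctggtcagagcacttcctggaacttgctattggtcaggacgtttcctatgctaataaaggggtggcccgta
OAS3 (chr12:112938304-112938473, plus strand): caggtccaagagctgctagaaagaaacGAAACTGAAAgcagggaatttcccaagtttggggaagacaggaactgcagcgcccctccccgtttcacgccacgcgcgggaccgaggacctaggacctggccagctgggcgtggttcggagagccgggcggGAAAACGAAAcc

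In ISG15 and in BST2 a pair of matches overlapped, and they gave capital runs of 16 bases. IFI6 held 3 matches, and IFI44L and OAS3 held 2 each that lay apart. Of the 43 members 34 had an entry in the promoter table, and 22 of the 34 (64.7%) held at least 1 match to this core between 250 bases before and 50 bases after a start, against 4.38% of the 27305 genes in the table. For the core of gamma-activated sites, TTC, any 3 bases and GAA, these shares were 11 of 34 (32.4%) and 9.38%. A gene can have several starts in the table. IRF9, OAS1 and SAMD9L held no match to the response element core in these windows. Members without an entry were IRF7, DHX58, IFIT2, IFITM2, OAS2, OASL, MX2, USP18 and TRIM22.

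Among members with a promoter entry, the median log2 ratio in H1299 was 0.26 for the 18 with a match to the response element core and 0.17 for the 9 without. In HCC827 it was 0.12 for the 19 with a match and 0.14 for the 11 without. The ranges overlapped in both lines (-0.17 to 0.96 with and -0.07 to 0.95 without in H1299, -0.26 to 0.32 with and 0.00 to 1.31 without in HCC827).

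**Figure D2:**
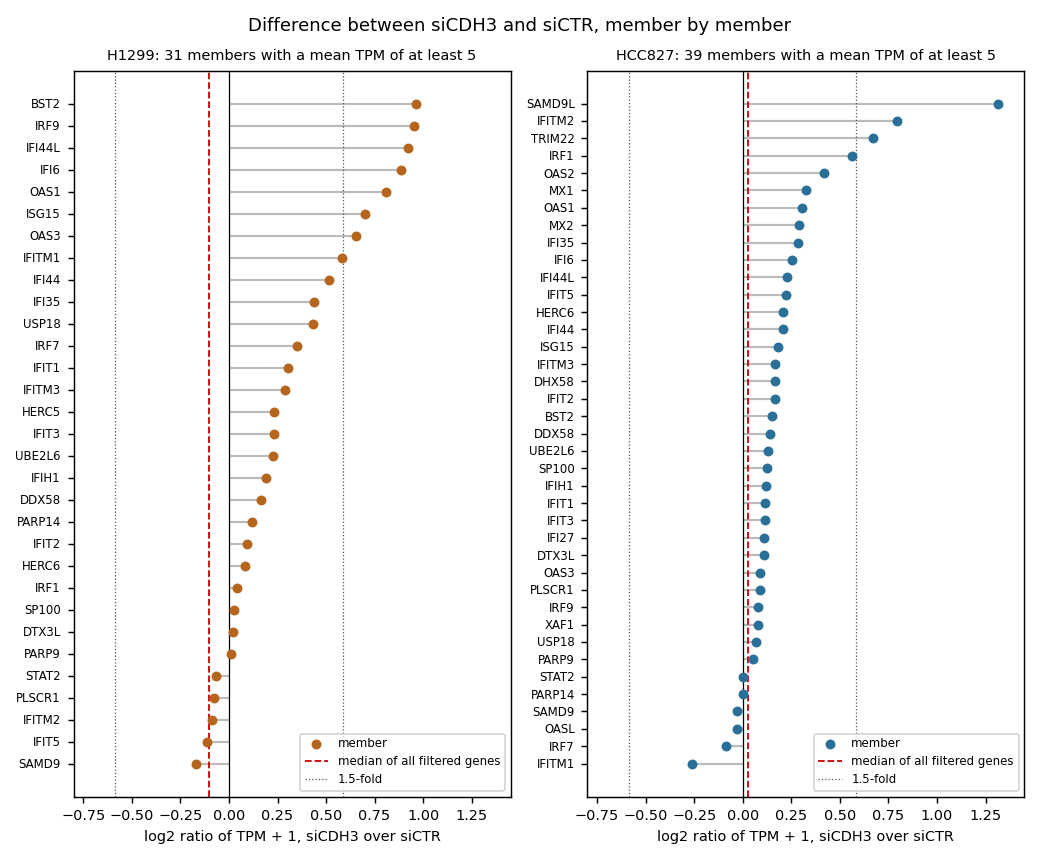
log2 ratio of TPM + 1, siCDH3 over siCTR, for the 31 members of H1299 (left) and the 39 of HCC827 (right) with a mean TPM of at least 5, sorted by size; the dashed line is the median of all filtered genes and dotted lines mark 1.5-fold. In H1299, 7 members lie past 1.5-fold, led by BST2 at 0.96, and in HCC827 3 members do, led by SAMD9L at 1.31.

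In HCC827, most members were also higher in siCDH3, by smaller amounts. Of the 39 members past the filter 34 had a ratio above 0, against 57.1% of the 10780 genes that passed. The median of the members was 0.14 and that of all genes 0.03. At least 1.5-fold higher were 3 members, or 7.69%, against 3.03% of all genes, and at least 1.5-fold lower was none, against 2.26%. At least 1.2-fold higher were 9 members, or 23.1%, against 12.8% of all genes. SAMD9L was the 1 member past 2-fold, against 0.853% of all genes. Without any filter, 36 of the 43 members were above 0 and 7 below, and 26.2% of all genes were above 0, with a median of 0.

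SAMD9L, a restriction factor for poxviruses that also slows growth and protein synthesis, was at 13.5 TPM in HCC827 siCDH3 and 4.84 in HCC827 siCTR (log2 ratio 1.31). IFITM2, which blocks the fusion of viruses in endosomes, was at 16.4 and 9.04 TPM in siCDH3 and siCTR (0.80). TRIM22, a ubiquitin ligase of the nucleus and cytoplasm, was at 6.57 and 3.76 TPM in siCDH3 and siCTR (0.67). SAMD9L and TRIM22 were low in this line, with siCTR values under 5 TPM, so they passed the filter through siCDH3, as IFI44L did in H1299, and the precision of such values is unknown. None of the 3 averaged 20 TPM, and IFITM2 and TRIM22 share exons with other genes in GENCODE release 29, so SAMD9L alone stood past 1.5-fold without such members. The partner of TRIM22, OR56B1, was listed at 0 in all 4 libraries. The partner of IFITM2, IFITM1, was at 101 and 121 TPM in HCC827 siCDH3 and siCTR. None of SAMD9L, IFITM2 and TRIM22 was higher in H1299 siCDH3 than in H1299 siCTR, but 2 of them lay under the filter there. SAMD9L was at 1.10 and 1.68 TPM in H1299 siCDH3 and siCTR, and TRIM22 was listed at 0 and at 0.273.

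**Figure D3:**
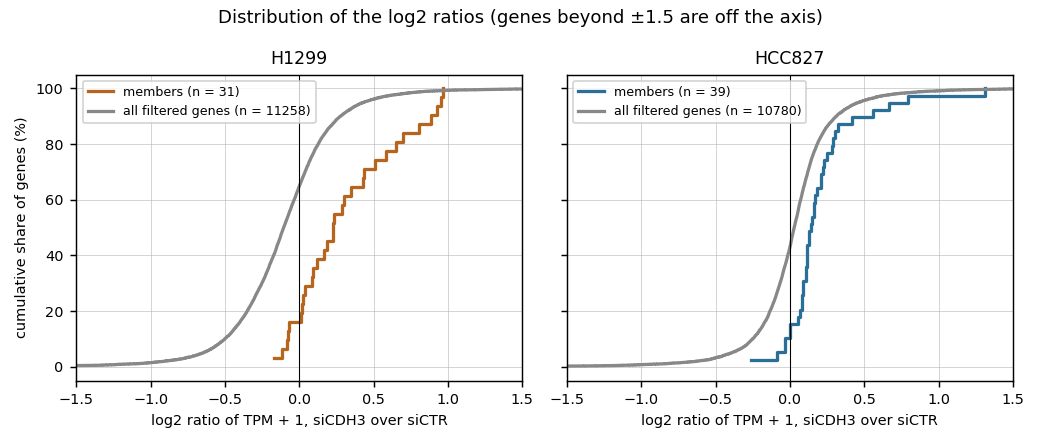
Cumulative share of genes against the log2 ratio of TPM + 1, siCDH3 over siCTR, for the members (colour) and all filtered genes (grey) in H1299 (left) and HCC827 (right). The curve of the members lies to the right of that of all genes through most of its range, with medians of 0.23 and -0.10 in H1299 and of 0.14 and 0.03 in HCC827.

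Among the transcription factors, a different member stood out in each line. IRF9, the DNA-binding subunit of the complex with STAT2, was at 84.8 TPM in H1299 siCDH3 and 43.3 in H1299 siCTR, but at 51.4 and 48.5 in HCC827 siCDH3 and siCTR. IRF1, which activates both interferon-induced and inflammatory genes, was at 37.4 TPM in HCC827 siCDH3 and 25.1 in HCC827 siCTR, and at 17.9 and 17.4 in H1299 siCDH3 and siCTR. The ratio of IRF1 in HCC827, 0.56, lay just under 1.5-fold. IRF7, the main inducer of interferon alpha genes, had ratios of 0.35 in H1299 and -0.09 in HCC827. STAT2 was nearly level, at 50.1 and 52.6 TPM in H1299 siCDH3 and siCTR and at 45.2 in both HCC827 libraries. IRF9 shares exons with a read-through gene, AL136295.5, which was at 12.5 and 8.70 TPM in H1299 siCDH3 and siCTR and at 11.0 and 6.31 in HCC827 siCDH3 and siCTR, so the split of reads between them is uncertain. IRF1 shares exons with AC116366.3 on the opposite strand, listed at 16.3 and 25.7 TPM in H1299 siCDH3 and siCTR and at 0.306 and 0 in HCC827 siCDH3 and siCTR, and is uncertain in the same way, as it is unknown here whether the counting used strand.

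The cytosolic RNA sensors differed little. DDX58 (RIG-I) was at 15.9 and 14.0 TPM in H1299 siCDH3 and siCTR, and at 13.4 and 12.1 in HCC827 siCDH3 and siCTR. IFIH1 (MDA5) was at 37.7 and 32.9 TPM in H1299 siCDH3 and siCTR, and at 23.1 and 21.2 in HCC827 siCDH3 and siCTR. Both were thus higher in siCDH3 in each line by log2 ratios of 0.12 to 0.19. DHX58 (LGP2), their regulator, was at 1.33 and 0.711 TPM in H1299 siCDH3 and siCTR, under the filter, and at 17.1 and 15.2 in HCC827 siCDH3 and siCTR.

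The OAS enzymes make short oligoadenylates that activate the ribonuclease RNase L. OAS1 was at 9.82 and 5.17 TPM in H1299 siCDH3 and siCTR, and at 61.1 and 49.4 in HCC827 siCDH3 and siCTR. OAS2 was at 3.94 and 1.91 TPM in H1299 siCDH3 and siCTR, under the filter, and at 31.3 and 23.2 in HCC827 siCDH3 and siCTR. OAS3 was at 23.8 and 14.8 TPM in H1299 siCDH3 and siCTR, and at 52.4 and 49.1 in HCC827 siCDH3 and siCTR. These 3 were higher in siCDH3 in both lines. OAS1 and IFI35 were the members at least 1.2-fold higher in both, 2 of the 30 members past the filter in both lines (6.67%, against 2.01% of 9459 genes). OASL, which lacks the enzyme activity and enhances RIG-I signalling, was at 4.52 and 2.76 TPM in H1299 siCDH3 and siCTR and at 5.18 and 5.32 in HCC827 siCDH3 and siCTR.

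The MX proteins are GTPases that trap viral nucleocapsids, and they marked the lines apart. MX1 was at 86.0 and 68.5 TPM in HCC827 siCDH3 and siCTR, and at 1.70 and 0.712 in H1299 siCDH3 and siCTR. MX2 was at 19.4 and 15.7 TPM in HCC827 siCDH3 and siCTR, and in H1299 it was at 0.0466 in siCDH3 and listed at 0 in siCTR.

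The IFITM proteins sit in plasma and endosomal membranes. IFITM3, the most abundant member, was at 1334 and 1092 TPM in H1299 siCDH3 and siCTR, and at 627 and 558 in HCC827 siCDH3 and siCTR. IFITM1 was at 117 and 78.1 TPM in H1299 siCDH3 and siCTR, but at 101 and 121 in HCC827 siCDH3 and siCTR. IFITM2 went the other way, at 342 and 363 TPM in H1299 siCDH3 and siCTR. IFITM1 and IFITM2 share exons in GENCODE release 29 and are similar in sequence, so their split of reads is uncertain. The ratio of IFITM1 in HCC827, -0.26, was the lowest of any member in that line, while its ratio in H1299 was 0.58.

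The IFIT proteins bind foreign RNA and block its translation. IFIT1 was at 68.0 and 55.0 TPM in H1299 siCDH3 and siCTR, and at 17.1 and 15.7 in HCC827 siCDH3 and siCTR. IFIT2 and IFIT3 had ratios of 0.10 and 0.23 in H1299 and of 0.16 and 0.11 in HCC827. IFIT5 had -0.11 in H1299 and 0.22 in HCC827. No IFIT gene was at least 1.5-fold different in either line.

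ISG15 is joined to proteins by UBE2L6, its conjugating enzyme, and HERC5, its ligase, and is removed by USP18, which also dampens the interferon receptor. In HCC827, ISG15 itself was at 194 TPM in siCDH3 and 171 in siCTR (log2 ratio 0.18). UBE2L6 was at 115 and 97.6 TPM in H1299 siCDH3 and siCTR, and at 197 and 180 in HCC827 siCDH3 and siCTR. USP18 was at 9.69 and 6.92 TPM in H1299 siCDH3 and siCTR, and at 9.86 and 9.36 in HCC827 siCDH3 and siCTR. HERC5 was at 22.6 and 19.1 TPM in H1299 siCDH3 and siCTR, but at 3.93 and 3.41 in HCC827 siCDH3 and siCTR. HERC6 was at 9.73 and 9.12 TPM in H1299 siCDH3 and siCTR, and at 9.94 and 8.47 in HCC827 siCDH3 and siCTR. All 5 genes of this group were higher in siCDH3 in both lines, though in HCC827 HERC5 lay under the filter and the group's ratios did not exceed 0.21. USP18 has a near-identical copy, USP41, so its TPM is uncertain.

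PARP9 and DTX3L, neighbours that share exons on opposite strands and are therefore uncertain, form a complex that modifies histones, and PARP14 is a related ADP-ribosyltransferase. Their ratios in H1299 were 0.01, 0.02 and 0.12 for PARP9, DTX3L and PARP14, and in HCC827 they were 0.05 for PARP9, 0.11 for DTX3L and 0.00 for PARP14. SAMD9, the neighbour of SAMD9L, was at 8.48 and 9.67 TPM in H1299 siCDH3 and siCTR and at 15.0 and 15.3 in HCC827 siCDH3 and siCTR. It was the single member of the 30 that was lower in siCDH3 in both lines (3.33%, against 29.6% of all genes).

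Of the IFI genes, IFI6 was at 81.2 and 68.0 TPM in HCC827 siCDH3 and siCTR, and IFI44L at 38.4 and 32.6. IFI27, a mitochondrial and nuclear envelope protein, was at 6.81 and 2.48 TPM in H1299 siCDH3 and siCTR, just under the filter by its mean, and at 45.6 and 42.2 in HCC827 siCDH3 and siCTR. IFI44 was at 23.2 and 16.0 TPM in H1299 siCDH3 and siCTR, and at 79.4 and 68.7 in HCC827 siCDH3 and siCTR. IFI35 was at 29.4 and 21.4 TPM in H1299 siCDH3 and siCTR, and at 33.6 and 27.4 in HCC827 siCDH3 and siCTR. All 5 IFI genes were higher in siCDH3 in both lines. Among the remaining effectors, the scramblase gene PLSCR1 was at 42.0 and 44.3 TPM in H1299 siCDH3 and siCTR and at 177 and 166 in HCC827 siCDH3 and siCTR. The nuclear body gene SP100 had ratios of 0.02 in H1299 and 0.13 in HCC827.

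The lowest members were near or at 0 in H1299. RSAD2, which encodes viperin, and its neighbour CMPK2, which share exons on opposite strands and together make a chain-terminating nucleotide, were listed at 0 in both H1299 libraries, as was EPSTI1. In HCC827, RSAD2 was at 1.26 and 0.755 TPM in siCDH3 and siCTR, CMPK2 at 1.30 and 1.39, and EPSTI1 at 2.61 and 3.08. XAF1, which promotes apoptosis, was at 19.6 and 18.5 TPM in HCC827 siCDH3 and siCTR, and in H1299 it was at 0.158 in siCDH3 and listed at 0 in siCTR. TRIM22 was listed at 0 in H1299 siCDH3 and was at 0.273 in H1299 siCTR. RSAD2, CMPK2 and EPSTI1 thus stayed under 5 TPM in all 4 libraries.

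The lines were then set side by side, which share no library. Of the 30 members past the filter in both, 22 (73.3%) were higher in siCDH3 in both lines, against 20.8% of the 9459 genes past it in both. Above the median of all genes in each line were 24 of the 30 (80.0%), against 26.0% of all genes. No member was at least 1.5-fold higher in both lines, against 0.317% of all genes. The order of the members differed between the lines: Spearman's rho of the 30 pairs of log2 ratios was 0.14 and Pearson's r -0.07, beside 0.09 and 0.13 over all 9459 genes. These are correlations across genes, which share their libraries. Opposite in sign were 7 of the 30, of which 4 (13.3%) were higher in HCC827 and lower in H1299, against 36.1% of all genes, and 3 the reverse, against 13.5%.

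With the lines as the units of replication, no member passed the test. The line was a block in a limma fit to log2(TPM + 1), which took in the 11501 genes that averaged at least 5 TPM over all 4 libraries. Of the 38 members tested 36 had a positive siRNA coefficient, and the share of all genes with one is not given here. The median coefficient of the members was 0.20 against -0.04 over all genes. After Benjamini-Hochberg adjustment over all genes limma called 0 members, with a lowest adjusted p of 0.948. The target CDH3 was not called either (-1.02, SE 0.15, limma adjusted p = 0.580). In all, 1 gene was called, lower in siCDH3 (0.00869%; none, or 0.0%, was called higher). At an unadjusted p under 0.05 limma had 5 members, all higher in siCDH3, against 4.45% of all genes. OAS2 had the largest coefficient of these with 0.59 (SE 0.17, limma adjusted p = 0.948), and the others were MX1, OAS1, IFI6 and IFI44L. Each of the 5 was higher in siCDH3 in both lines, but picking genes by a low p in this fit all but fixes that. OAS2 and MX1 lay under the filter in H1299 and entered the fit through HCC827. Fits that leave out 1 library drop the block and mix siRNA with line: the median of the members was -0.11 with 17 of 38 positive without H1299 siCTR, and -0.19 with 17 positive without HCC827 siCDH3. With 1 residual degree of freedom per gene, the error comes from how far the lines disagree, and cultures within a line do not enter it.

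The levels of the members, like those of all genes, differed far more between the lines than between the siRNAs. Over both siRNAs, limma called 26 of 38 members different, beside 7089 of all 11501 genes. Called higher in HCC827 were 20 members, against 20.9% of all genes, and called lower were 6, against 40.8% of all genes. Of those called higher, DHX58, IFI27, MX1, MX2, OAS2, SAMD9L and XAF1 averaged under 5 TPM in H1299 and entered the fit through HCC827. HERC5, called lower, averaged under 5 TPM in HCC827 and entered it through H1299. For these members the filter and the call draw on the same difference. Mitochondrially encoded genes took 34.4% and 36.2% of TPM in HCC827 siCDH3 and siCTR, and 16.4% and 13.5% in H1299 siCDH3 and siCTR. A larger share of these genes lowers the TPM of all others in a library. The limma median of all genes was -0.29, and that of the members 0.59. With mitochondrially encoded genes left out of TPM, 25 members were called higher in HCC827 and 4 lower, against 4182 and 3349 of 12337 genes. With quantile normalization the counts were 22 and 4, against 3396 and 3735 of 11488 genes. IFI6 and IFIH1 were the members no longer called lower under both. With no filter limma called 0 of 43 members in either direction, against 51 of 58174 genes. An unadjusted limma p under 0.05 was then found for 25 members, against 9604 of the 58174 genes. Without HCC827 siCDH3 or without HCC827 siCTR, fewer members and fewer genes were called. The median of the members was then 0.46 and 0.61 respectively, beside -0.31 and -0.28 over all genes. The libraries of a line differ in siRNA, and nothing says that they came from separate cultures. The error behind p is how far the lines disagree on the siRNA difference, with 1 residual degree of freedom per gene. limma draws this error towards that of the other genes, and the spread between cultures of a line does not enter it.

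Taken one siRNA at a time, 19 of 38 members were at least 1.5-fold higher in HCC827 siCDH3 than in H1299 siCDH3, against 21.5% of all genes, and 9 were lower (23.7%), against 35.6%. Between the siCTR libraries 18 of 37 (48.6%) were higher in HCC827 by that fold, against 18.1% of all genes, and 5 were lower (13.5%), against 41.2%. Here too the filter let genes pass through the line where they were high, members and all genes alike. The members past 1.5-fold lower in HCC827 in the siCDH3 libraries alone were IFI6, ISG15, IRF7 and IRF9, named after their values were seen. With mitochondrially encoded genes left out of TPM, the siCDH3 libraries gave 22 members higher and 5 lower in HCC827, beside 32.6% and 24.8% of all genes, and the siCTR libraries gave 26 and 3, beside 30.5% and 26.1%.

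Of the members called between the lines, MX1 had the largest difference, at 86.0 and 68.5 TPM in HCC827 siCDH3 and siCTR against 1.70 and 0.712 in H1299 siCDH3 and siCTR (limma log2 difference 5.18, SE 0.16, adjusted p = 4.91e-05). BST2 followed, at 206 and 186 TPM in HCC827 siCDH3 and siCTR against 12.3 and 5.83 in H1299 siCDH3 and siCTR (4.37, SE 0.24, adjusted p = 0.000151). XAF1 and MX2 differed by 4.22 and 4.17. These 4 were named for the size of this difference, and MX1, XAF1 and MX2 passed the filter through HCC827. IFITM2 went furthest the other way, at 16.4 and 9.04 TPM in HCC827 siCDH3 and siCTR against 342 and 363 in H1299 siCDH3 and siCTR (-4.74, SE 0.25, adjusted p = 0.000135). HERC5 (-2.22), IFIT1 (-1.84) and IFITM3 (-1.03) were lower in HCC827 too. IFITM3 was thus the highest member in both lines, and IFITM2 was the next highest in H1299 and among the lower members in HCC827.

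**Figure D4:**
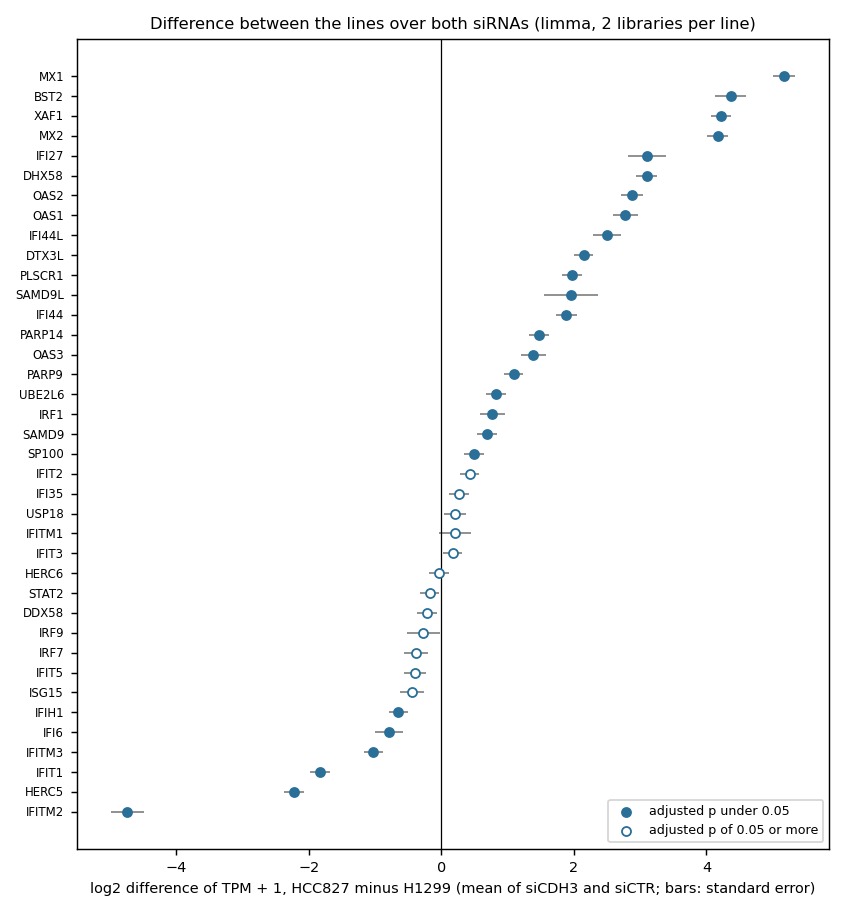
log2 difference of TPM + 1, HCC827 minus H1299, over both siRNAs for the 38 members with a mean TPM of at least 5 over the 4 libraries, from limma with 2 libraries per line; bars are standard errors and filled points have an adjusted p under 0.05. The differences run from -4.74 for IFITM2 to 5.18 for MX1, and 26 members are filled.

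Members that act in one complex or pathway did not all share a direction between the lines. UBE2L6 was 0.83 higher in HCC827 (limma adjusted p = 0.00734), whereas its partner HERC5 was lower there. ISG15 did not pass (-0.44, limma adjusted p = 0.0958), nor did STAT2 (-0.18), IRF9 (-0.28) or IRF7 (-0.38). The values of STAT2 and IRF9 lay above the median of all genes. PARP9 (1.09), DTX3L (2.15) and PARP14 (1.47) were all higher in HCC827, as were OAS1 (2.78), OAS2 (2.88) and OAS3 (1.39). Of the RNA sensors, DHX58 was higher in HCC827 (3.10), IFIH1 was lower (-0.65, limma adjusted p = 0.0156) and DDX58 did not pass (-0.22). OAS2 and DHX58 entered this fit through HCC827, and HERC5 through H1299.

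The genes around the members in the pathway were examined as lists. Of 11 interferon ligand genes the highest value in any library was 0.426 TPM and 6 were listed at 0 in all 4. IFNB1 was at 0.426 and 0.129 TPM in HCC827 siCDH3 and siCTR and listed at 0 in both H1299 libraries, and IFNE was at 0.298 TPM in H1299 siCDH3 and 0.162 in HCC827 siCDH3 and listed at 0 in both siCTR libraries. Values this low cannot be read as a difference, since their precision is unknown.

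Receptor and kinase genes were present in both lines. Of 10 genes 8 passed the filter in each line, none was past 1.5-fold between siCDH3 and siCTR, and the medians were -0.15 in H1299, where 4 of the 8 lay above the median of all genes, and 0.12 in HCC827. The receptor subunit gene IFNAR1 was at 20.5 and 26.1 TPM in H1299 siCDH3 and siCTR, and at 25.4 and 24.1 in HCC827 siCDH3 and siCTR. TYK2 was lower in siCDH3 in both lines, with ratios of -0.26 in H1299 and -0.50 in HCC827.

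Among 8 negative regulators, 7 passed the filter in H1299 and none of the 7 was above 0, against 35.2% of all genes. Their median was -0.15 beside -0.10 for all genes, and 3 lay above the median of all genes. In HCC827 all 8 passed and 5 were above 0, against 57.1% of all genes, with a median of 0.02 beside 0.03 for all genes. SOCS1, which blocks JAK kinases, was at 9.63 and 14.4 TPM in H1299 siCDH3 and siCTR, and at 12.5 and 8.70 in HCC827 siCDH3 and siCTR. PTPN11, a phosphatase, was at 34.4 and 50.1 TPM in H1299 siCDH3 and siCTR and at 63.3 and 65.2 in HCC827 siCDH3 and siCTR. Of the ISG15 conjugation genes beyond the members, the ligase gene TRIM25 had ratios of -0.28 in H1299 and -0.07 in HCC827, ARIH1 had 0.07 in H1299, and UBA7, the activating enzyme gene, had -0.19 in HCC827.

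In 42 other interferon-induced genes, 22 of the 29 past the filter were above 0 in H1299, against 35.2% of all genes. Their median was 0.10 beside -0.10 for all genes. Of the 29, 1 was at least 1.5-fold higher, a share close to the 2.77% of all genes. It was DDX60L, a helicase-like gene, with 8.53 and 4.63 TPM in siCDH3 and siCTR. BATF2 (0.54), PARP10 (0.42) and HELZ2 (0.42) were next. In HCC827, 20 of 35 were above 0, a share close to that of all genes, with a median of 0.05. None was past 1.5-fold in either direction, against 3.03% of all genes higher and 2.26% lower. APOL2 (-0.53) and SHISA5 (-0.51) were lower in HCC827 siCDH3, and the DNA sensor gene IFI16 was higher, with 224 and 156 TPM in siCDH3 and siCTR (0.52). Between the lines, 19 of 36 were past 1.5-fold higher in HCC827 with the control siRNA and 3 past it lower, against 18.1% and 41.2% of all genes.

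Markers of other cell types were low, with 2 exceptions that passed the filter, CD68 and COL1A1. Of 10 hematopoietic markers 1 passed the filter, CD68, which many cell types express, with 122 and 122 TPM in H1299 siCDH3 and siCTR and 142 and 121 in HCC827 siCDH3 and siCTR. PTPRC, the pan-leukocyte gene, was at 0.0349 TPM in HCC827 siCTR and listed at 0 in the other libraries. The summed TPM of 3 plasmacytoid dendritic cell markers ran from 0.245 to 0.529 over the 4 libraries, and that of 5 endothelial markers from 0.421 to 1.90. The summed TPM of 6 fibroblast markers ran from 3.85 to 5.92, most of it from COL1A1, which passed the filter in HCC827 with 5.87 and 5.58 TPM in siCDH3 and siCTR.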

How the data were processed

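RNA of 4 libraries, 1 per group, was prepared with standard Illumina protocols, per the labels. The authors deposited TPM values of 58174 genes, 1 column per library, on the genome build hg19, per the submitters' processing notes. Which aligner, counting tool, annotation and strand setting served is not given in the sources used here. TPM keeps no depth, so no counting interval or detection floor is given.

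Members were matched by symbol. Ratios are log2 of TPM + 1 for genes with a mean TPM of at least 5 in the libraries compared. Genes past 1.5-fold were counted beside the percentage of all genes past it. limma 3.58.1 (R 4.3.3) was fitted to 11501 genes with terms for line and siRNA, and p-values were adjusted by Benjamini-Hochberg over all of them, with a threshold of 0.05. The labels name the line, which pairs the libraries. Sizes of 1.2-fold and 2-fold, other pseudocounts, filters and scalings, the fit without the block and fits without each library were alternatives. The scripts were tested on simulated data.

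Values in every library are given for members past 1.5-fold, the 8 most abundant, and the 4 highest and the 4 lowest ratios between lines. Other members are described by role. Up to 4 genes per pathway list and line are given by TPM or by ratio, some for a single line only. The values of 1 gene of the pathway lists are not reported here. The members, lists and rules were chosen with earlier results of these data known. Of the gene identifiers 57836 are in GENCODE release 29, used for shared exons. Promoters come from RefSeq (GRCh38.p14), where DDX58 is listed as RIGI.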

Additional observations from a re-analysis of the deposited data

Results flagged for a closer look

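Log2 ratios of opposite sign in the lines, siCDH3 over siCTR, flagged 7 of the 30 members past the filter in both. The difference was not tested, since each line has 1 library per group. IFITM2 had 0.80 in HCC827 and -0.08 in H1299, a difference of 0.88. IFITM1 had -0.26 in HCC827 and 0.58 in H1299, a difference of -0.84. These neighbours share exons in GENCODE release 29, and the part of this in the result was not tested. HCC827 minus H1299, IRF7 differed by -0.44, IFIT5 by 0.34, PLSCR1 by 0.16, PARP14 by -0.12 and STAT2 by 0.0677. The last pair had ratios that round to 0.00 in HCC827.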

How the results depend on the processing

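Of the recomputed summary values 202 stayed near the reported value and 36 moved. Most are counts, which have no direction and were held near if within 1.5-fold of the reported count, or if both were 0. Only the median log2 ratios could reverse in sign, and none did. The median limma coefficient of the members for siRNA was not among these values. It was below 0 without H1299 siCTR (-0.11) and without HCC827 siCDH3 (-0.19), in fits that mix siRNA with line. Where no construction is named, the cause was not tested. Stricter size rules shorten and looser ones lengthen a count. In H1299 the 7 members at least 1.5-fold higher became 0 at 2-fold on the TPM + 1 scale (IFI44L and BST2 passed 2-fold in TPM), 14 at 1.2-fold, 4 with a pseudocount of 5 and 3 of 17 with a mean TPM of at least 20, where 14 were above 0, and the median of 0.23 became 0.33 with the median of all genes set to 0. In HCC827 the 3 became 1 at 2-fold, 9 at 1.2-fold and 0 of 25 at 20 TPM, where 22 were above 0, and 1 without members that share exons (an alternative chosen after seeing the data). Higher in both lines were 10 of 14 at 20 TPM. Between the siCDH3 libraries, HCC827 over H1299, the 9 lower members became 5 at 2-fold, 5 with the median of all genes set to 0, 5 without mitochondrially encoded genes and 4 with quantile normalization, and 16 of 26 were above 0 at 20 TPM. The median of 0.65 there became 0.54 with a pseudocount of 5, 0.75 at 1 TPM, 0.78 with no filter, 0.86 with the median of all genes set to 0, 0.99 without mitochondrially encoded genes, 0.82 with quantile normalization and 0.75 without members that share exons. Between the siCTR libraries the 5 lower members became 3 at 2-fold, 3 without mitochondrially encoded genes and 3 with quantile normalization. The median of 0.50 there became 0.62 at 1 TPM, 0.75 with no filter, 0.87 with the median of all genes set to 0, 0.99 without mitochondrially encoded genes and 0.81 with quantile normalization. With no filter limma called 0 members higher and 0 lower between the lines, against 20 and 6. Fits without 1 library and without the block called 13 to 18 higher and 3 to 9 lower, the 13 without HCC827 siCDH3 and the 3 without HCC827 siCTR. With no replicate block for the pairing, limma called 21 higher and 5 lower between the lines, against 2435 and 4734 of 11501 genes. It called 0 between the siRNAs, where 0 members had an unadjusted p under 0.05. For siCDH3 against siCTR limma called 0 members in every setting run. Fits without 1 library mix siRNA with line and assume that a lone library varies like the others. The unknown depth limits members near 5 TPM or below.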
